A study of Mus with 12 samples.

Results

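The regions described here carried an m6A peak in at least 2 of 3 livers from mice fed a high-fat diet (HFD) and in none of 3 livers from mice fed a low-fat diet (WT). They were found by merging the peaks of the 6 livers wherever peaks overlapped by 1 base or more. A total of 727 of 18374 merged regions met this rule, which is 3.96% of all regions. They lay in 664 of 7906 genes with any region, or 8.4%, and are called HFD-only regions below. They were chosen by the presence of peaks in these 6 lists, so their counts and their fold enrichment are a description and were not tested. The mirror set, with a peak in at least 2 WT livers and in no HFD liver, held 504 regions, 2.74% of all regions, in 401 genes, 5.07% of all genes.

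The HFD group was 3 male C57BL/6J mice that received 60% of their energy from fat for 12 weeks, starting at 6 weeks of age. The WT group was 3 male C57BL/6J mice of the same age that received 10% of their energy from fat for the same time, so the name WT refers to the diet and not to a genotype. Each liver gave 1 peak list, numbered HFD 1, HFD 2 and HFD 3, and WT 1, WT 2 and WT 3, and the 6 input libraries were not analysed here. The diet label reads HFD for every sample, so groups were taken from the sample titles.

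N6-methyladenosine (m6A) is the most common internal modification of mammalian mRNA. It is written by a methyltransferase complex around METTL3 and METTL14, removed by FTO and ALKBH5, and read by proteins of the YTH family, which alter the splicing, translation and decay of the transcript. In liver, transcripts of lipid metabolism are among its known targets. In MeRIP-seq, an m6A antibody captures fragments of RNA, and peaks are the parts of transcripts that are enriched in the captured RNA over the input. Fold enrichment is that ratio as the authors' peak caller gave it. A peak can be called only where the gene is expressed and read deeply enough, and library depth was not given in the sources used here. From the peak lists alone, a missing peak therefore cannot be told apart from low expression or few reads. In whole liver, fewer cells of a type cannot be told apart from less RNA per cell. The study listed its leading genes that were both differentially expressed by RNA-seq and differentially methylated. Of genes named below, that list had Osbpl3, Themis, Mogat1, Abcd2 and Bcl6 as higher in HFD mice, and Slco1a1 as lower. Its leading differentially methylated peaks included higher ones in Themis and Gprc5b and a lower one in Ttn. Genes absent from these short lists may also have differed in expression. The part of expression in the HFD-only regions was not tested.

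The lists held 12898, 11925 and 10288 peaks in HFD 1, HFD 2 and HFD 3, against 10109, 10376 and 12966 peaks in WT 1, WT 2 and WT 3. The longest list was therefore WT 3 and the shortest WT 1, and list lengths of the groups overlapped. WT 2 and WT 3 stood apart in one respect. Of 24 skeletal muscle marker genes with a region, such as the sarcomere genes Ttn and Neb, 3, 3 and 2 had a peak in HFD 1, HFD 2 and HFD 3, against 2, 22 and 24 in WT 1, WT 2 and WT 3. None of these muscle genes had an HFD-only region, whereas 21 had a WT-only region. They held 94 of the 504 WT-only regions, and the WT-only counts over all genes and regions include them. Peaks in 9 hepatocyte marker genes were listed in every liver, for 7, 5 and 6 genes in the HFD lists and 5, 7 and 4 genes in the WT lists.

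Of the 727 HFD-only regions, 132 had a peak in all 3 HFD lists, which is 0.718% of all regions, and 595 had a peak in exactly 2. HFD 1 and HFD 2 alone shared 329 of them, HFD 1 and HFD 3 shared 133, and HFD 2 and HFD 3 shared 133. The combination that lacked HFD 3 was thus the most common, and HFD 3 was also the shortest HFD list. Just outside the rule stood 2405 regions with a peak in 1 HFD list and no WT list, and 1293 regions with a peak in 2 or more HFD lists and in 1 WT list. The single WT list of those 1293 regions was WT 1 for 254, WT 2 for 251 and WT 3 for 788, or 60.9%. The longest WT list therefore removed more regions from the set than the other WT lists did together, and without it the rule would give 1518 regions. For comparison, 6245 regions had a peak in all 6 lists.

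**Figure D1:**
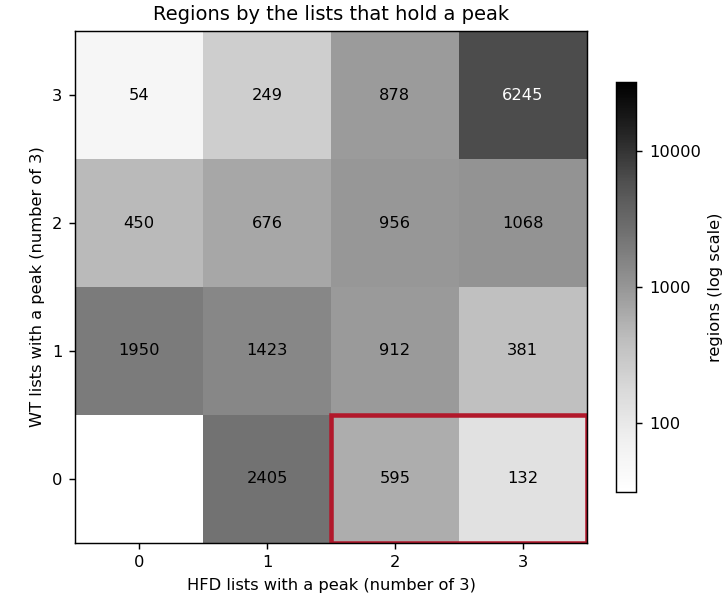
Number of merged regions by how many HFD lists (horizontal axis, 0 to 3) and how many WT lists (vertical axis, 0 to 3) held a peak, with shading on a log scale. The red frame marks the 595 and 132 HFD-only regions; 6245 regions had a peak in all 6 lists.

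The peaks of HFD-only regions were weak within their own lists. Their median fold enrichment was 5.58, 5.27 and 5.17 in HFD 1, HFD 2 and HFD 3, where all peaks of these lists had medians of 7.92, 7.47 and 7.32. The corresponding medians of all peaks in WT 1, WT 2 and WT 3 were 7.64, 7.48 and 7.87. The lists of both diets thus had similar overall strength, and the HFD-only peaks sat at a median percentile of 24.0, 24.4 and 22.1 of their lists. Among peaks below percentile 10 of each HFD list stood 23.0%, 21.0% and 22.4% of the HFD-only peaks, and among those above percentile 90 stood 0.503%, 0.671% and 0.754%. Strong exceptions reached a fold enrichment of 37.65, 52.99 and 43.09 in HFD 1, HFD 2 and HFD 3.

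**Figure D2:**
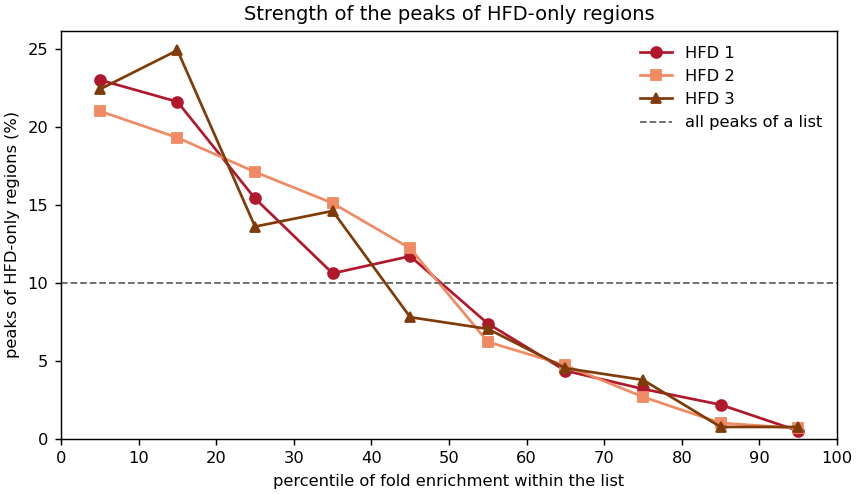
Share of the peaks of HFD-only regions (vertical axis, percent) in 10 bins of fold enrichment within the list (horizontal axis, percentile), one line per HFD list; the dashed line is the 10% that all peaks of a list give. The lowest bin held 23.0%, 21.0% and 22.4% of these peaks in HFD 1, HFD 2 and HFD 3.

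The median fold enrichment of a peak was 5.10 in regions of 1 HFD list and no WT list, 5.30 in HFD-only regions of 2 HFD lists and 5.56 in those of all 3. Taken per region over its HFD peaks, the median was 5.4 and 5.595 in HFD-only regions of 2 and of 3 HFD lists. It was 5.715 and 6.33 in regions of 2 and of 3 HFD lists that 1 WT list shared, so those just outside the rule on that side were somewhat stronger. Within HFD-only regions, livers ranked the peaks alike to a moderate degree, with a Spearman correlation of 0.53 over the 461 regions shared by HFD 1 and HFD 2. The value was 0.54 for HFD 1 and HFD 3 and 0.57 for HFD 2 and HFD 3, over 265 regions each. These are correlations across regions, which are not independent replicates.

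The host genes fell into a smaller class without any WT peak and a larger class with WT peaks elsewhere in the gene. The class without a WT peak held 221 regions in 210 genes, and 44 of these regions were found in all 3 HFD lists. For 162 of the 210 genes the HFD-only region was the only region of the gene in any list. The class with WT peaks elsewhere held 506 regions in 454 genes, of which 88 regions were found in all 3 HFD lists. In 278 of these genes another region had a peak in all 6 lists, and 126 genes had at least 2 such regions. A host gene therefore had a peak in all 3 WT lists in 316 cases, in 2 WT lists in 70 and in 1 WT list in 68.

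The classes differed in the size and place of the region. The median length was 554 bases where the gene had no WT peak and 172 bases where it had WT peaks elsewhere, beside 258 bases over all regions. Genes with a single region in any list, of which there were 3769, had a median region length of 746 bases. The midpoint lay within 2000 bases of an end of the RefSeq gene for 123 of 214 regions (57.5%) in genes without a WT peak, and for 123 of 491 regions (25.1%) in genes with WT peaks elsewhere. Over all regions the share was 35.2%. The annotation used gives no strand, so a start cannot be told from an end. By RefSeq type, 640 of the 664 host genes were protein coding.

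Among genes without a WT peak, the regions of all 3 HFD lists with the strongest weakest peak included genes with known roles in immunity, lipid synthesis and cell division. All positions are on the mouse build GRCm38. The first was the uncharacterised gene 9030025P20Rik (chromosome 17 from 14990890 to 14991577), with a fold enrichment of 16.89, 12.15 and 11.73 in HFD 1, HFD 2 and HFD 3. Cenpm, a centromere protein needed for chromosome segregation, had 19.27, 10.59 and 14.77 in the same order (chromosome 15 from 82233776 to 82234509). Neither gene had another region in any list. Cd274, which encodes the immune checkpoint ligand PD-L1, had 10.15, 8.91 and 9.82 at chromosome 19 from 29385390 to 29386104, and a further peak in HFD 3 alone at 7.32. Ptprc, the pan-leukocyte surface phosphatase CD45, had 9.72, 8.23 and 11.49 at chromosome 1 from 138064253 to 138064778. Csf2ra, the receptor chain for the growth factor GM-CSF, had 9.0, 10.21 and 7.40. No WT list had a peak anywhere in these genes.

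Mogat1, a monoacylglycerol acyltransferase that makes diacylglycerol for triglyceride synthesis, had HFD-only regions at 2 places, both in all 3 HFD lists. The region at chromosome 1 from 78537944 to 78538173 had a fold enrichment of 17.73, 8.12 and 10.10 in HFD 1, HFD 2 and HFD 3, and the one from 78529053 to 78529252 had 7.02, 3.87 and 5.15. HFD 1 was highest and HFD 2 lowest in both. Ubd, the interferon- and TNF-inducible ubiquitin-like modifier FAT10, also had HFD-only regions at 2 places in all 3 HFD lists. Its longer region (chromosome 17 from 37195246 to 37196101) had 7.92, 9.24 and 7.16, and its region of 81 bases had 7.56, 7.39 and 4.33. The remaining leading genes of this class were Mlph, an adaptor of melanosome transport, Ggct, an enzyme of the glutathione cycle, the orphan receptor Gprc5b, Tmem253 and the cytochrome P450 gene Cyp2c39. Their fold enrichment ran between 5.88 and 11.76 over the HFD livers.

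**Figure D3:**
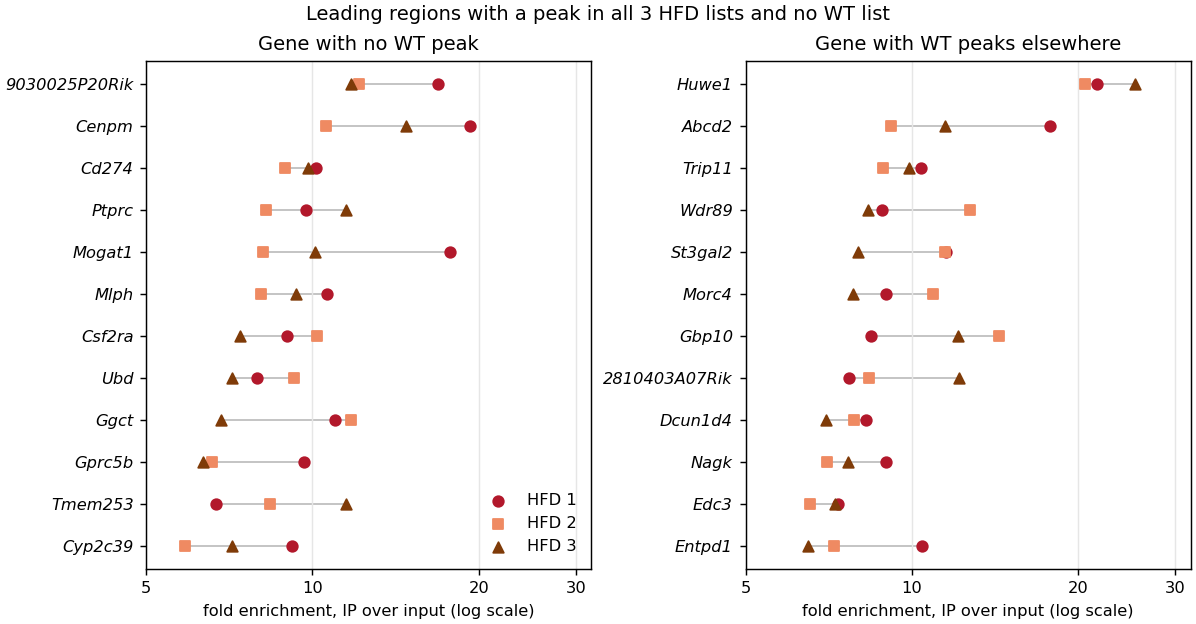
Fold enrichment of immunoprecipitate over input (log axis) in HFD 1, HFD 2 and HFD 3 for the 12 leading regions of all 3 HFD lists in genes without a WT peak (left) and with WT peaks elsewhere (right), ordered by the lowest percentile over the HFD lists; grey lines join the lowest and highest liver. Huwe1 stands highest, at 21.68, 20.58 and 25.40.

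In genes with WT peaks elsewhere, the strongest region of all 3 HFD lists was in Huwe1, a HECT-domain ubiquitin ligase. At chromosome X from 151907276 to 151907444 its fold enrichment was 21.68, 20.58 and 25.40 in HFD 1, HFD 2 and HFD 3, and its weakest peak stood at percentile 90.2 of its list. The gene held 8 regions, 4 of them with a peak in all 6 livers. One of those 4, from 151891740 to 151892098, had 5.08, 5.30 and 18.05 in the HFD livers, against 16.82, 14.08 and 20.59 in the WT livers. The second HFD-only region of Huwe1, from 151890730 to 151890906, lay beside it and had 17.17 in HFD 1 and 13.44 in HFD 2. The livers in which the shared region was weak were thus the livers that had the extra region next to it.

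Abcd2, a peroxisomal transporter of very long-chain fatty acids, had 17.79, 9.16 and 11.49 in HFD 1, HFD 2 and HFD 3 at chromosome 15 from 91148242 to 91149205. Its other region was listed at 9.57 and 4.82 in HFD 1 and HFD 2, against 6.25 and 10.98 in WT 1 and WT 3, so the groups overlapped there. The other leading genes of this class had fold enrichments between 6.49 and 14.41. They were Trip11, a Golgi tethering protein, Wdr89, the sialyltransferase St3gal2, Morc4, the guanylate-binding protein Gbp10, 2810403A07Rik, Dcun1d4, a factor of cullin neddylation, the amino sugar kinase Nagk, the decapping factor Edc3, and the ectonucleotidase Entpd1.

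Regions found in exactly 2 HFD lists included the strongest peaks of the whole set. In Rpl7l1, a ribosomal protein L7-like gene, a region of 38 bases on chromosome 17 had 37.65 in HFD 1 and 43.09 in HFD 3. A neighbouring region of Rpl7l1 had 23.68, 25.52 and 20.38 in the HFD livers, against 24.64, 31.43 and 27.55 in the WT livers, so the gene was strongly enriched under both diets. The same held for Arih2, a ubiquitin ligase that works with cullins, whose HFD-only region of 62 bases had 26.54 in HFD 1 and 19.71 in HFD 2. Its neighbouring region had 21.17, 17.49 and 20.94 in the HFD livers, against 21.59, 18.87 and 27.52 in the WT livers. Pbxip1, a PBX homeobox-interacting protein, had 18.29 in HFD 1 and 11.81 in HFD 3, beside a region listed in all 6 livers.

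In genes without a WT peak, the strong regions of exactly 2 HFD lists included those of Otc and Apob, well-known hepatocyte transcripts. Otc, the urea cycle enzyme ornithine transcarbamylase, had 18.76 in HFD 1 and 11.96 in HFD 2 at chromosome X from 10319843 to 10321024. Apob, the structural apolipoprotein of very low-density lipoprotein, had 10.12 in HFD 2 and 10.04 in HFD 3, and a region of 7467 bases in HFD 1 alone at 7.69. Normal liver is known to express both genes, and expression was not measured in the peak lists. Osbpl3, an oxysterol-binding protein, had 12.65 in HFD 1 and 9.64 in HFD 3 over 2121 bases. Ppp1r14b, a phosphatase inhibitor, and the amino acid transporter gene Slc38a11 had values between 11.32 and 13.87.

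In 506 HFD-only regions the gene had a WT peak elsewhere, at a median distance of 3259 bases, and 303 regions (59.9%) lay within 5000 bases of it. The same distance had a median of 4496 bases for the 288 WT-only regions with HFD peaks elsewhere, of which 153 (53.1%) lay within 5000 bases. In 74 of the 506 regions (14.6%), in 65 genes, the gene also had a region with peaks in at least 2 WT lists and in none of the HFD lists that carried the HFD-only region. The share was 51 of 288 (17.7%) for WT-only regions. In 16 of the 506 (3.16%) the exchange covered all 6 livers, so that each liver had a peak in exactly one of the regions of the pair. The same was seen for 11 of 288 WT-only regions (3.82%). Of these 16 pairs, 9 lay within 1000 bases of each other, and their median distance was 499 bases.

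The clearest such exchange was in Fkbp5, a glucocorticoid-induced co-chaperone of steroid receptors. Its HFD-only region at chromosome 17 from 28440928 to 28441053 had 52.99 in HFD 2 and 27.85 in HFD 3. The region 486 bases away, from 28441540 to 28441722, had 32.68 in HFD 1, against 22.31, 30.44 and 51.14 in WT 1, WT 2 and WT 3. Every liver thus had a strong peak in this part of Fkbp5, at 1 place or the other. Another region of Fkbp5 had 98.68, 119.65 and 72.57 in the HFD livers, against 58.73, 125.62 and 199.93 in the WT livers, and the groups overlapped.

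Polr3d, a subunit of RNA polymerase III, showed the same layout. Its HFD-only region had 13.58 in HFD 1 and 15.52 in HFD 2, and a region 435 bases away had 11.63 in HFD 3, against 15.23, 9.72 and 14.85 in the WT livers. Ppp2r3c, a regulatory subunit of protein phosphatase 2A, had 14.23 in HFD 1 and 7.90 in HFD 2, with 8.82 in HFD 3, against 5.73, 5.54 and 8.04 in the WT livers, at a region 378 bases away. Further examples were chosen after their values were seen. Prkar1a, a regulatory subunit of protein kinase A, had 11.84 in HFD 1 and 11.88 in HFD 2, and a region 296 bases away had 7.91 in HFD 3, against 8.18, 9.15 and 12.54 in the WT livers. Lasp1, an actin-binding protein, had 10.28 in HFD 1 and 12.25 in HFD 3, and a region 333 bases away had 6.15 in HFD 2, against 5.70, 8.61 and 7.16 in the WT livers. In these genes no liver lacked a peak in the pair of regions, and the HFD-only call rests on the place of the listed peak. Whether the methylated site itself differed was not tested.

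**Figure D4:**
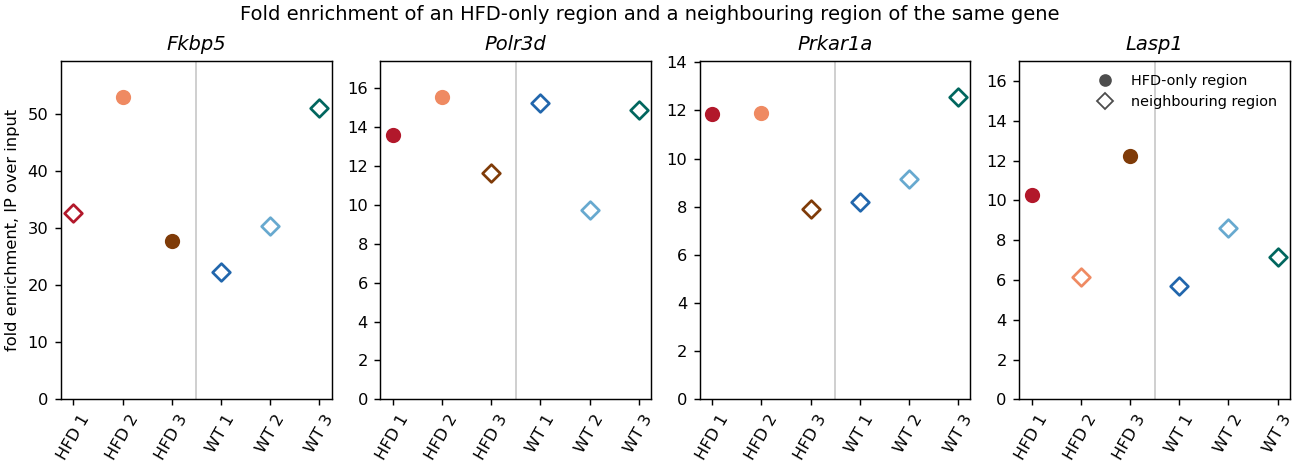
Fold enrichment of immunoprecipitate over input in each liver, HFD left and WT right, for the HFD-only region (filled circles) and a neighbouring region of the same gene (open diamonds) in Fkbp5, Polr3d, Prkar1a and Lasp1. Each liver has a value in exactly one of the regions, as in Fkbp5 with 52.99 in HFD 2 and 51.14 in WT 3.

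Most host genes, 607 of 664, had a single HFD-only region, 52 had 2, and 5 had more. Rbbp5, a core subunit of histone H3 lysine methyltransferase complexes, had 4 on chromosome 1 between 132492553 and 132498121, with fold enrichments of 3.41 to 8.11. A region between them, from 132494021 to 132494174, had 5.81, 5.10 and 4.88 in the HFD livers, against 5.10 and 5.27 in WT 1 and WT 2. Another region in that stretch, from 132496206 to 132496275, had 4.87 in WT 2 and 5.42 in WT 3 and no peak in any HFD list. The peaks of both diets in Rbbp5 were thus interleaved along the gene. Fam98b, a component of the tRNA ligase complex, had 3 HFD-only regions of 4.16 to 8.82 and no WT peak. Fam126a, which encodes the lipid kinase adaptor hyccin, had 3 regions of 4.49 to 8.28. Maob, a mitochondrial monoamine oxidase, had 3 regions of only 3.09 to 3.82.

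The guanylate-binding and HIN-200 families, which are induced by interferon, carried several HFD-only regions each. Gbp10 had 3, with the strongest at 8.45, 14.41 and 12.11 in HFD 1, HFD 2 and HFD 3. A further region of Gbp10 had 5.74, 12.82 and 10.53 in the HFD livers, against 7.44 and 6.64 in WT 2 and WT 3. Gbp6 had HFD-only regions at 2 places, of which the stronger had 9.26 in HFD 2 and 10.08 in HFD 3, and a further region had 10.82, 16.72 and 15.31 in the HFD livers, against 7.73 and 5.77 in WT 2 and WT 3. The regions of Gbp6 and Gbp10 matched in length at 194, 207, 281 and 246 bases, and those of Ifi204 and Mnda at 423, 197, 285 and 189 bases. Reads of such close copies can be divided between them in alignment, so which member of these families carried a peak is uncertain. Mnda had HFD-only regions of 9.24 and 6.89 in HFD 2 and of 8.32 and 11.98 in HFD 3.

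Interferon-induced genes had the highest share of genes with an HFD-only region of the gene lists examined, by the rule as applied to all 6 lists. Of the 34 with any region, 12 (35.3%) had one, beside 8.4% of all genes, and none had a WT-only region, beside 5.07%. They were Cd274, Gbp2, Gbp5, Gbp6, Gbp9, Gbp10, Ifi203, Ifi204, Ifih1, Irgm2, Mx2 and Oas3, with 16 regions in all, 6 of them in all 3 HFD lists. Peaks anywhere in the 34 genes were listed for 29, 30 and 29 genes in HFD 1, HFD 2 and HFD 3, against 24, 22 and 25 genes in WT 1, WT 2 and WT 3, where all genes with a peak numbered 6430, 5918 and 5296, against 5315, 5326 and 6408. These counts include the HFD-only peaks themselves, so the rule raises them in the HFD lists and nothing is read from their order. Recounted after the data were seen, the genes with an HFD-only region numbered 6 of 34 (17.6%) without HFD 2, beside 3.27% of all genes, and 16 of 34 (47.1%) without WT 3, beside 17.6%. With lists of equal length they numbered 9 of 33 (27.3%), beside 6.58%. Their share was below that of the leukocyte list without HFD 2, without HFD 3, without WT 2 and with stricter peaks in the HFD lists only. Gbp2, a GTPase of the innate response, had 4.86, 6.72 and 6.16 in the HFD livers, and Oas3, a sensor of double-stranded RNA, had 12.94 in HFD 2 and 7.66 in HFD 3. Neither had a WT peak. Ifi203 had 5.93, 5.88 and 6.12 in the HFD livers in a gene that also held 3 regions of all 6 lists. Ifih1, the RNA sensor MDA5, had 4.33 and 5.66 in HFD 2 and HFD 3. Gbp6, Gbp9 and Gbp10, and likewise Ifi203 and Ifi204, are close relatives whose reads may be divided, so they are not independent cases.

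Genes of leukocytes and lymphocytes had an HFD-only region in 3 of 11 cases, Ptprc, Cd274 and the T cell signaling gene Themis (6.11 in HFD 1 and 5.35 in HFD 2), and a WT-only region in none, a share of 27.3% beside 8.4% of all genes. The count was 2 of 11 (18.2%) without HFD 1 and again without HFD 2, beside 3.35% and 3.27% of all genes. It was 5 of 11 (45.5%) without WT 2, beside 11.4%. With lists of equal length it was 2 of 9 (22.2%), beside 6.58%. Peaks were listed in 10, 9 and 7 of these genes in the HFD lists, HFD-only peaks included, against 4, 7 and 6 in the WT lists. Cd274 is in both this list and the interferon list. Of 25 macrophage and Kupffer cell genes 1 (4%) had an HFD-only region, the chemokine receptor gene Cx3cr1 (4.71 in HFD 2 and 5.66 in HFD 3). Genes of that list with a peak numbered 17, 22 and 21 in the HFD lists, against 20, 19 and 15 in the WT lists. The part of a changed number of immune cells in these results was not tested.

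Endothelial and adhesion genes had an HFD-only region in 4 of 26 cases (15.4%), beside 8.4% of all genes. A WT-only region was found in 2 (7.69%), beside 5.07% of all genes. Selp, the adhesion receptor P-selectin, had no WT peak and had 6.48, 9.41 and 5.49 in HFD 1, HFD 2 and HFD 3. Itga5, the fibronectin receptor subunit, had 4.86, 4.78 and 4.76, Colec10 had 3.45, 7.56 and 4.83, and the leukocyte ligand Icam1 had 6.55 in HFD 2 and 6.49 in HFD 3. Itga5, Colec10 and Icam1 also had a region listed in all 6 livers. Stellate cell and matrix genes had an HFD-only region in 4 of 21 cases (19%) and a WT-only region in none. They were collagen genes, Col4a2 (6.84, 4.54 and 3.99), Col5a1, Col6a1 and Col6a3, and Col6a3 had HFD-only regions at 2 places. The stronger one, of 66 bases, had 8.91 in HFD 2 and 8.99 in HFD 3. Each of these collagen genes had a WT peak elsewhere.

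**Figure D5:**
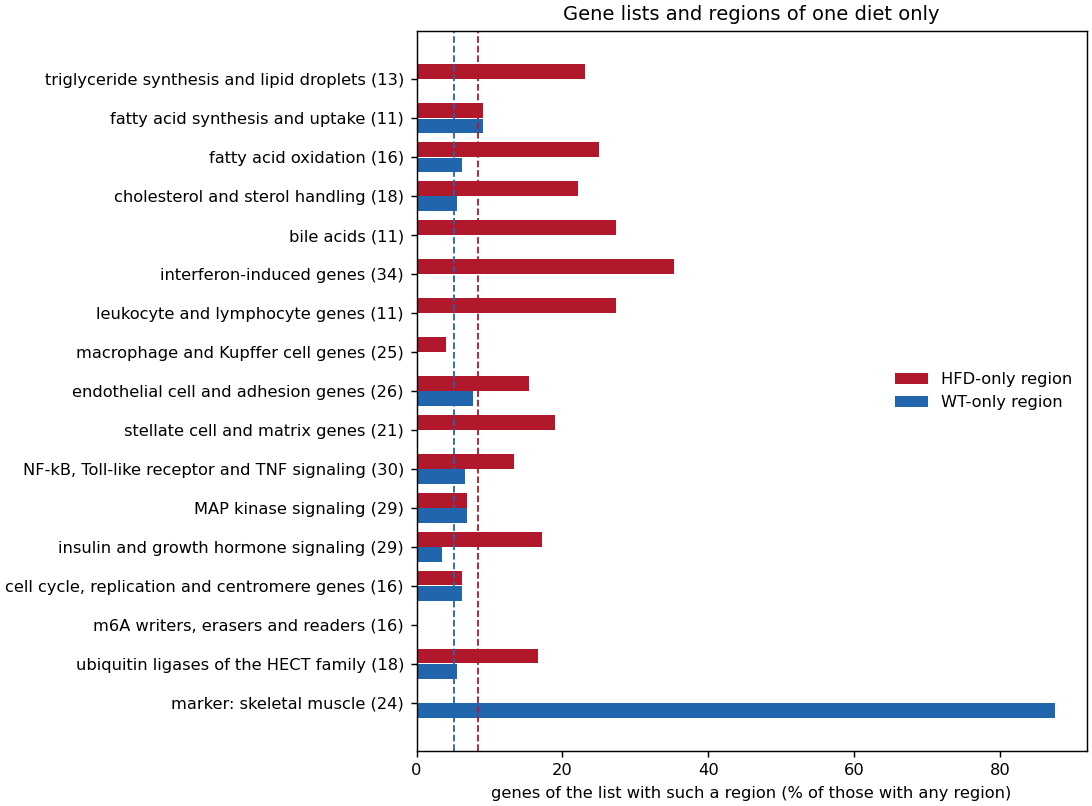
Share of the genes of each gene list (those with at least 10 genes with a region, number in brackets) that had an HFD-only region (red) or a WT-only region (blue), in percent of the genes with any region. Dashed lines are the shares over all genes, 8.4% and 5.07%; interferon-induced genes reached 35.3% and 0%.

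Lists of lipid metabolism held 1 to 4 genes with an HFD-only region each, and their shares are set beside 8.4% of all genes. Of 13 genes of triglyceride synthesis and lipid droplets, 3 had an HFD-only region (23.1%), and none had a WT-only region. Besides Mogat1 they were Gpam, the first acyltransferase of glycerolipid synthesis (5.29 in HFD 1 and 5.83 in HFD 3, no WT peak), and Lpin2, a phosphatidate phosphatase. Lpin2 had 14.51 in HFD 1 and 10.72 in HFD 2 over 2964 bases, and its other region had 5.43 and 4.64 in HFD 1 and HFD 2, against 4.75 and 5.27 in WT 2 and WT 3. Genes of this list with a peak, HFD-only peaks included, numbered 11, 7 and 7 in the HFD lists, against 7, 7 and 6 in the WT lists. Of 11 genes of fatty acid synthesis and uptake, 1 had an HFD-only region (9.09%), the desaturase gene Scd2 (7.20 in HFD 2 and 4.96 in HFD 3), and 1 had a WT-only region.

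Of 16 genes of fatty acid oxidation, 4 had an HFD-only region (25%) and 1 had a WT-only region. Abcd2 was by far the strongest. Acadm, the medium-chain acyl-CoA dehydrogenase, had 2.29, 2.56 and 2.97 in HFD 1, HFD 2 and HFD 3, and Hadha, a subunit of the mitochondrial trifunctional protein, had 2.12 in HFD 2 and 2.43 in HFD 3. These values are close to 2, the lowest fold enrichment in the lists. Acsl1, a long-chain acyl-CoA synthetase, had 4.88 in HFD 1 and 4.55 in HFD 2, and its other region was listed at 4.94 and 3.57 in HFD 1 and HFD 2, against 3.57 in WT 1.

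Cholesterol and sterol genes had an HFD-only region in 4 of 18 cases (22.2%) and a WT-only region in 1. Hmgcs1, the cytosolic enzyme of cholesterol synthesis that precedes HMG-CoA reductase, had 11.83 in HFD 1 and 7.50 in HFD 3 and no WT peak. Osbpl3 was the other gene without a WT peak, and Mylip, the ligase that degrades the LDL receptor, and Osbpl8 had values between 3.78 and 7.27. Bile acid genes had an HFD-only region in 3 of 11 cases (27.3%) and a WT-only region in none. Cyp7a1, the rate-limiting enzyme of bile acid synthesis, had 8.71 in HFD 1 and 5.10 in HFD 2 over 2468 bases, and its other region had 5.73 in HFD 1, against 4.40 in WT 3. The transporter genes Slco1a1 (7.50 in HFD 1 and 6.68 in HFD 2) and Abcb4 (4.44 in HFD 2 and 4.53 in HFD 3) also had regions listed in all 6 livers.

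Of 29 genes of insulin and growth hormone signaling, 5 had an HFD-only region (17.2%) and 1 had a WT-only region (3.45%). Over all genes these shares were 8.4% and 5.07%. Insr, the insulin receptor, held the longest HFD-only region of all, 4750 bases on chromosome 8 from 3151274 to 3156023, with 10.78 in HFD 1 and 4.54 in HFD 3. It had no other peak in any list. Bcl6, a transcriptional repressor of growth hormone-responsive genes, had 7.16, 5.81 and 5.10 in HFD 1, HFD 2 and HFD 3 and no WT peak. Tsc1, an inhibitor of mTORC1, had 13.59 in HFD 1 and 9.42 in HFD 2, and its neighbouring region had 9.71, 6.19 and 6.21 in the HFD livers, against 6.63, 6.64 and 11.02 in the WT livers. Ghr and Igf1r, receptors of growth hormone and IGF-1, had values between 4.12 and 6.89 and WT peaks elsewhere.

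Of 30 genes of NF-kB, Toll-like receptor and TNF signaling, 4 had an HFD-only region (13.3%) and 2 had a WT-only region (6.67%). Over all genes these shares were 8.4% and 5.07%, and the shares below are set beside them. Nfkbie, an inhibitor of NF-kB, and Mlkl, the effector of necroptosis, each had HFD-only regions at 2 places and no WT peak, with fold enrichments of 3.96 to 6.55 over both genes. Traf6, the ubiquitin ligase of Toll-like receptor signaling, had 5.10, 5.14 and 6.33 in HFD 1, HFD 2 and HFD 3, and the kinase gene Ikbkb had 3.90 and 3.40 in HFD 1 and HFD 2. Of 29 MAP kinase genes, Map2k4 and Map3k14 had an HFD-only region, and 2 genes had a WT-only region. HECT ubiquitin ligases had one in 3 of 18 genes, Huwe1, Itch and Trip12. Of 16 writers, erasers and readers of m6A with a region, none had an HFD-only or a WT-only region. Of 16 cell cycle genes, Cenpm alone had an HFD-only region (6.25%), and 1 gene had a WT-only region (6.25%). Of the smaller marker lists, hepatocyte genes had an HFD-only region in 1 of 9 cases (11.1%), Apob. Genes of adipocytes, pancreatic acinar cells and cholangiocytes had an HFD-only region in 0 of 5, 0 of 1 and 0 of 4. Of 4 candidate genes of the study with a region, Osbpl3 had one. All lists together covered 54 of the 664 host genes.

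Gene families were also counted by name after the values had been seen. Of 6 Slco transporter genes 3 had an HFD-only region and 0 had a WT-only region. Of 16 collagen genes 6 had an HFD-only region and 2 (12.5%) had a WT-only region, beside 5.07% of all genes. Of 213 zinc finger genes named Zfp, 11 (5.16%) had an HFD-only region, beside 8.4% of all genes. By chromosome, the share of regions that were HFD-only ran between 2.43% on chromosome 15 and 5.83% on chromosome 19 among the autosomes, with 5.71% on the X, and 1 of 11 regions on the Y was HFD-only.

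Some HFD-only regions were in genes with many regions of all 6 lists. Iqgap2, a scaffold protein with a role in liver growth, had 15 such regions and 1 HFD-only region of 103 bases, with 5.95 in HFD 1 and 3.95 in HFD 2. Cgnl1, a junction protein, had 13, and Smarcc1, a subunit of SWI/SNF chromatin remodelling complexes, had 10. The initiation factor gene Eif4g3 and the nuclear receptor corepressor gene Ncor1 had 8 each. The HFD-only peaks of Smarcc1, Eif4g3 and Ncor1 had fold enrichments between 2.97 and 5.38.

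The regions of host genes that the rule had not used were compared between the diets by fold enrichment. Over all 6245 regions with a peak in all 6 lists, limma with Benjamini-Hochberg adjustment called 0 (0%), with a lowest adjusted p of 0.448, and 302 (4.84%) had an unadjusted p under 0.05. In 278 host genes, 627 such regions were tested, of which 0 were called and 41 (6.54%) had an unadjusted p under 0.05, 17 higher and 24 lower in HFD. Their median log2 difference was -0.02, as was that of all regions. The host region with the lowest p, chosen after its value was seen, was in Bcl7b, another SWI/SNF subunit. It had 10.43, 19.49 and 6.72 in the HFD livers, against 4.05, 5.03 and 5.23 in the WT livers, a log2 difference of 1.18 ± 0.33 (SE, n = 3 each) with an adjusted limma p of 0.820. The same adjusted p was given for Tcea3, an elongation factor gene, with 15.26, 17.25 and 21.53 in the HFD livers, against 8.65, 8.10 and 11.26 in the WT livers. The HFD and WT values of Bcl7b and of Tcea3 did not overlap, but neither difference passed the threshold of 0.05.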

How the data were processed

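The authors sequenced m6A immunoprecipitates and inputs of liver RNA and called peaks per mouse. Tools in the submitters' notes are MACS2 2.1.0, Bowtie 1.1.2, Trimmomatic 0.33 and bcl2fastq 2.17, with a human build, although positions in the lists match mouse GRCm38 genes. The deposited fold enrichment is a ratio of immunoprecipitate to input, not scaled between livers. The deposited score is minus 10 times the log10 of the peak p-value, at least 50, and the deposited false discovery rate, read as a percent, runs from 25 to 100. The median rate was 100 in HFD 2, HFD 3, WT 1 and WT 2, 79.49 in HFD 1 and 64.63 in WT 3. The score and the false discovery rate were not used to choose regions. Without the depth of the libraries no interval was computed, and a peak list cannot separate methylation from expression.

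Peaks of the 6 lists were merged where they overlapped by 1 base or more, chained, without strand, in Python 3.11.15 with pandas 2.3.3. Genes were taken by gene ID, or by name where there was none, and gene ends from RefSeq annotation of GRCm38, in which 708 of 727 regions were matched. Several peaks of 1 list in a region gave their highest value, and percentiles are within a list. Regions with a peak in all 6 lists were compared on log2 fold enrichment, median-centred per list, with limma 3.58.1 (trend, Benjamini-Hochberg, threshold 0.05), which was tested on simulated data. Mice are separate animals, 3 per group.

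The regions, the 22 gene lists and the tests were chosen with earlier results of these data known. Genes were named by a rule: members of the lists, the 12 leading regions of 3 HFD lists and 6 leading regions of 2 HFD lists in each class by the lowest percentile over the HFD lists, genes with 3 or more regions, 6 leading genes with 2, the 5 longest regions and the 5 genes with the most regions of all 6 lists. One region that the rule names is not reported here. Alternatives changed the overlap, the peak threshold, the length of the lists, the livers used, the scaling, a filter on low values and a replicate block.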

Additional observations from a re-analysis of the deposited data

How the results depend on the processing

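The set of HFD-only regions depended on the threshold of the peaks and on single livers. When each of the 6 lists was limited to peaks no weaker than its own median fold enrichment, 399 regions were HFD-only, of which 70 were among the 727, with 80 in all 3 HFD lists and 217 genes with WT peaks elsewhere. Most regions of that count were new because weaker WT peaks had been dropped by construction. When the stricter peaks were asked for in HFD lists only, 70 regions remained, 14 in all 3 HFD lists, in 46 genes with WT peaks elsewhere and 23 genes without a WT peak. With each liver left out in turn, the regions numbered 265 (without HFD 1 or without HFD 2) to 1518 (without WT 3). Without HFD 3 they numbered 461, without WT 1 981 and without WT 2 978. The directions of these changes follow from the rule. Leaving out an HFD liver asked for a peak in both remaining HFD lists, which lowers the count, as stricter HFD peaks do. Leaving out a WT liver removes a condition, which raises it. The regions of all 3 HFD lists numbered 204 (without WT 2) to 345 (without WT 3), and 228 without WT 1. Genes with WT peaks elsewhere numbered 175 to 807, and genes without a WT peak 77 to 516. With each list limited to its 10109 peaks of lowest p-value, 510 regions were found. Of the 727 regions 348 overlapped one of these, as did 103 of the 132 in all 3 HFD lists. Regions in all 3 HFD lists numbered 94 with these shorter lists. Joining only peaks that overlapped by 0.5 of the shorter gave 730 regions. Added after the data were seen, leaving out regions with a complementary WT region gave 653, and leaving out those that exchange over all 6 livers gave 711.

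The limma fit called 0 regions under every alternative run, and the same 0 in host genes. Alternatives that tested all 6245 regions had 216 to 477 at an unadjusted p under 0.05. The filter on low values left 3123 regions to test, of which 158 had an unadjusted p under 0.05. With the replicate block the fit called 0, with 251 at an unadjusted p under 0.05. The deviations of livers with the same number had correlations of -0.04, 0.02 and -0.22, so the numbers did not pair the livers. Sequence motifs and transcript segments, planned with their alternatives, were not run, as they need a genome sequence and exon models that were not used here. With read depth unknown, a missing peak has no detection limit.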
